A study of Arabidopsis thaliana with 12 samples.

Results

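A genotype by humidity interaction asks, gene by gene, whether the transcriptional response of a mutant to air humidity differs from that of the wild type. It was measured here by RNA sequencing in dissected inflorescence meristems of Arabidopsis thaliana, the dome of dividing cells at the shoot tip that forms flowers. All 12 libraries of the study entered it, 3 in each of 4 groups: the mutant pip2 (written pip2d in the sample titles and pip2;5 in the design text) at high and at low air humidity, and the wild type col0 at high and at low air humidity. The plants' age, the humidity values, the length of exposure and the nature of the mutant allele are not given in the sources used here, nor is it said whether replicates were separate plants, so that p-values refer only to the spread between these libraries, which may be technical. Of 25424 genes in the count table, 21897 had enough counts to be tested. For each, the interaction is the log2 fold change from low to high humidity in pip2 minus that in col0, so a positive value means that the response of pip2 lay above that of col0.

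Aquaporins are protein channels through which water crosses membranes, and PIP2;5 is one that sits in the plasma membrane. Water enters a growing plant cell along an osmotic gradient and the wall yields to the resulting turgor, so that water transport and the loosening and rebuilding of the wall together set expansion. The primary wall is a network of cellulose fibres tethered by xyloglucan in a matrix of pectin, and it also holds glycoproteins that carry arabinogalactan chains, some of them anchored to the membrane by a lipid. Xyloglucan endotransglucosylase/hydrolases (XTH) cut and rejoin the xyloglucan tethers, expansins loosen the contact between the polymers, and receptor kinases such as THE1 read the state of the wall. Glucosinolates, the sulfur-rich defence compounds of the cabbage family, and jasmonate, a wound hormone, belong to another group of genes described here.

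Between 17850187 and 28445060 counts were assigned per library. Replicates had correlations of 0.982 to 0.990 (log2 CPM, where CPM are counts scaled to a common library size), with a biological coefficient of variation of 10.3%. Some libraries were as close to the other genotype at the same humidity as to their own replicates. Thus pip2 high replicate 2 was as close to col0 high replicate 1 (0.986) as to its own replicates (0.985 and 0.984). In turn, col0 high replicate 1 was closer to pip2 high replicates 1, 2 and 3 (0.985, 0.986 and 0.983) than to col0 high replicate 3 (0.982). Its correlation with col0 high replicate 2 was 0.989. Counts of calls without each library are given at the end. PIP2;5 (AT3G54820) stood at 0.727, 1.09 and 1.07 CPM in pip2 high and 1.19, 0.623 and 0.548 CPM in pip2 low, against 50.8, 49.5 and 52.1 CPM in col0 high and 70.4, 71.8 and 70.1 CPM in col0 low. Its transcript was near the bottom of the measured range in all 6 libraries labelled pip2 and abundant in all 6 labelled col0. Its interaction was 0.78 ± 0.27 (SE), with an adjusted p of 0.427 in edgeR's quasi-likelihood test. The meristem genes WUS (17.7 to 35.9 TPM, a level scaled for transcript length) and STM (21.1 to 33.0 TPM) were present throughout. Among genes of flowering, AP1 had 69.4 to 89.1 TPM, LFY 1.68 to 3.66 TPM and TFL1 0.379 to 1.53 TPM. The stem cell gene CLV3 was not analysed here, and these levels do not settle how much of the tissue was meristem. The libraries also held tapetum transcripts such as A9 (151 to 346 TPM) and photosynthetic ones such as RBCS1A (6622 to 8111 TPM), so transcripts of anthers and of green tissue were present in all 12. Fewer cells of a type and less RNA per cell cannot be told apart in such bulk samples.

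The interaction passed an adjusted p of 0.05 (Benjamini-Hochberg over the tested genes, edgeR) in 77 genes, 0.352% of those tested. In 67 genes (0.306%) the response of pip2 lay above that of col0, and in 10 genes (0.0457%) it lay below. This balance moved when 1 library was left out. Lower genes numbered 2 of 23 calls without col0 high replicate 2 and 20 of 64 without pip2 high replicate 2. Of the 77, 12 of the higher and 2 of the lower genes had an interaction of at least 2-fold. Before adjustment, 1649 genes (7.53%) had a p under 0.05, 927 higher and 722 lower. Humidity itself changed many more genes: 5263 in pip2 (24% of tested genes; 2696 rose and 2567 fell) and 6607 in col0 (30.2%; 3139 rose and 3468 fell). Across the 21897 tested genes the 2 responses, which share no library, correlated at a Pearson r of 0.717 and a Spearman rho of 0.684. Genes are not independent replicates, so these coefficients are a description.

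**Figure D1:**
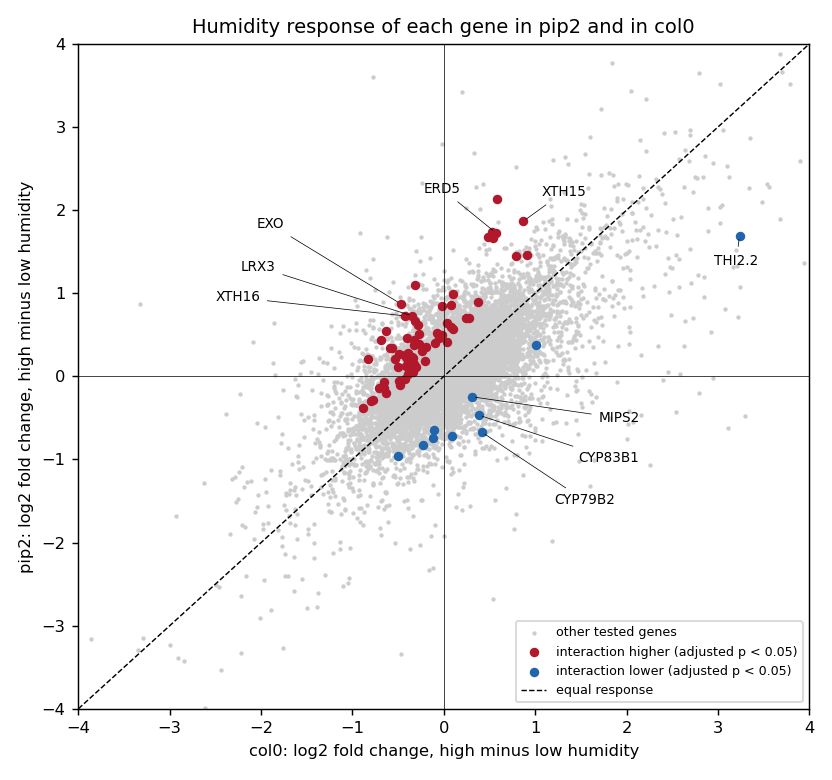
Log2 fold change from low to high humidity in pip2 (vertical axis) against that in col0 (horizontal axis). Each point is a tested gene, red points had a higher and blue points a lower interaction at an adjusted p under 0.05, and the dashed line marks equal responses. The 67 red points lie above the line and the 10 blue points below it, and 16 genes lie outside the axes.

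Among the higher genes, the gap between the genotypes lay mostly in low humidity. In low humidity all 67 had a lower mean in pip2 than in col0, with a median log2 difference of -0.62, against -0.0019 over all tested genes. In high humidity 37 of the 67 had a higher mean in pip2 than in col0 and 30 a lower one, with a median log2 difference of 0.03, against 0.01 over all tested genes. The 3 pip2 low libraries lay below the other 9 libraries in 44 of the 67 genes, the 3 col0 low libraries lay above the other 9 in 38, and both held in 18. The pip2 high and col0 high libraries overlapped in 55 of the 67. These counts describe genes that the same libraries selected and carry no test of their own. The positions of libraries were not counted over all tested genes. The 10 lower genes all had a higher mean in pip2 than in col0 in low humidity (median log2 difference 0.59), while in high humidity 2 had a higher and 8 a lower mean in pip2 (median -0.19).

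The 67 higher genes were divided by their response in each genotype. The transcript rose in pip2 and fell in col0 in 21 genes, rose in pip2 with no call in col0 in 14, and fell in col0 with no call in pip2 in 16. It rose in both genotypes in 11 genes and fell in both in 5. Of the 10 lower genes, 4 fell in pip2 with no call in col0, 2 fell in pip2 and rose in col0, 2 fell in both and 2 rose in both. The fitted responses had opposite signs in 44 of the 77 genes, 40 higher and 4 lower. Selecting genes for a difference between the responses favours opposite signs, and the share over all tested genes was not counted.

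**Figure D2:**
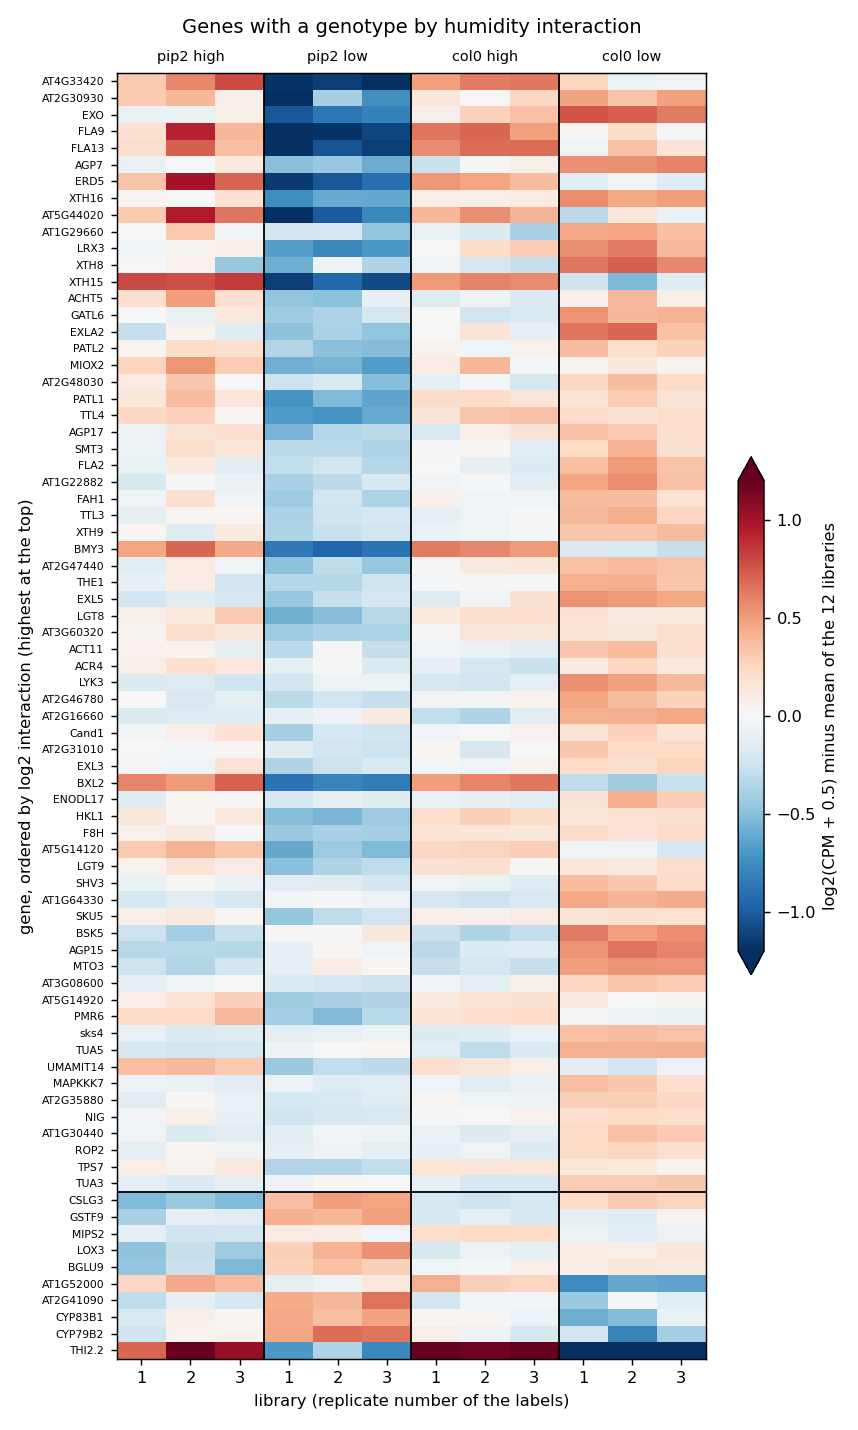
Level of each of the 77 genes in each of the 12 libraries, as log2(CPM + 0.5) minus the gene's mean over all 12. Columns are grouped as pip2 high, pip2 low, col0 high and col0 low, rows run from the highest interaction at the top to the lowest at the bottom, and the line separates the 67 higher from the 10 lower genes. The pip2 low columns are mostly blue and the col0 low columns mostly red above the line, and the pip2 low columns are mostly red below it.

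The 2 highest interactions, 1.54 and 1.42, belonged to genes without a symbol in the reference. The gene with the smallest adjusted p was XTH16 (AT3G23730), a xyloglucan endotransglucosylase/hydrolase. It had 232, 228 and 256 CPM in pip2 high, 135, 149 and 148 CPM in pip2 low, 241, 238 and 244 CPM in col0 high and 334, 314 and 323 CPM in col0 low. Levels in high humidity overlapped between the genotypes, whereas in low humidity the pip2 libraries were the lowest of the 12 and the col0 libraries the highest. XTH16 therefore rose in pip2 (log2 fold change 0.73, edgeR adjusted p = 1.7e-06) and fell in col0 (-0.43, adjusted p = 0.00014), an interaction of 1.15 ± 0.08 (SE; edgeR adjusted p = 4.81e-05).

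EXO (EXORDIUM, AT4G08950), an extracellular protein that brassinosteroid hormones induce and that promotes cell expansion, had 185, 185 and 205 CPM in pip2 high, 96.6, 107 and 111 CPM in pip2 low, 204, 237 and 249 CPM in col0 high and 330.4, 321 and 302 CPM in col0 low. It was lowest in pip2 low and highest in col0 low, with the high humidity groups between them and overlapping narrowly. The interaction of EXO was 1.34 ± 0.11 (SE; edgeR adjusted p = 0.000169), composed of a rise of 0.87 in pip2 and a fall to a log2 fold change of -0.47 in col0. LRX3 (AT4G13340), a leucine-rich repeat extensin that links the wall to receptor kinases, had 84.4, 90.5 and 91.5 CPM in pip2 high, 55.5, 51.2 and 54.3 CPM in pip2 low, 88.0, 102 and 108 CPM in col0 high and 129, 134 and 115 CPM in col0 low. Its 4 groups stood in the same order as those of EXO, and its interaction was 1.07 ± 0.11 (edgeR adjusted p = 0.00129).

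Windows of 250 bases upstream of annotated gene starts are shown for the 2 higher genes with the smallest adjusted p and for the lower gene with the smallest one, so that their upstream sequence can be set beside their opposite responses. They were read from the RefSeq assembly TAIR10.1, in the direction of transcription, with the gene start just after the last base. Capitals mark every match to TATAAA (the TATA box core), CACGTG (the G-box), CGTGTG or CGTGCG (brassinosteroid response elements bound by BZR1), TGTCTC (an auxin response element), TTGACC (a W-box) and ACGTGGC (an abscisic acid response element), on either strand.
EXO, chr4:5739969-5740218, plus strand: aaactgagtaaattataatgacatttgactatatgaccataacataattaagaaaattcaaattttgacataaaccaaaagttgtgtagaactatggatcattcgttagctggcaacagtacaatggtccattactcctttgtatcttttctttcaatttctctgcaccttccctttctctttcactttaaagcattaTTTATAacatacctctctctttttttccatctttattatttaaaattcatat
XTH16, chr3:8549787-8550036, plus strand: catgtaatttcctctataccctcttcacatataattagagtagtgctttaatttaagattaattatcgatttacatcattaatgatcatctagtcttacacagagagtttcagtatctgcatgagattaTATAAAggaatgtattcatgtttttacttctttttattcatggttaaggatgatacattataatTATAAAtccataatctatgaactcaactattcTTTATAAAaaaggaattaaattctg
MIPS2, chr2:9454301-9454550, minus strand: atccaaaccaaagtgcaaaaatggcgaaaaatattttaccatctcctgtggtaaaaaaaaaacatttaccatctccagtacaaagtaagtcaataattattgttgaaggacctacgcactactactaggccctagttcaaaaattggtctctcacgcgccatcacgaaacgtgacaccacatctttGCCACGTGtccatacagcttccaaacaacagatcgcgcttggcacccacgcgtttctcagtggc
In EXO and XTH16 the matches were to TATAAA, while in MIPS2 a G-box and an overlapping ACGTGGC on the other strand lay 62 to 64 bases before the gene start. TATAAA was found in 37.3% of the 67 higher genes and 46% of all tested genes with a window (21845), and CACGTG in 5.97% and 7.12%. CGTGTG was found in 7.46% against 5.42%, CGTGCG in 4.48% (3 genes) against 1.66%, TGTCTC in 8.96% against 10.6%, TTGACC in 11.9% against 11.8% and ACGTGGC in 1.49% against 3.67%. A match is a run of letters, not evidence of binding.

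Other wall genes had the same form as XTH16 and EXO. The arabinogalactan peptide gene AGP7 had 14, 14.8 and 16.2 CPM in pip2 high, 10.4, 10.8 and 9.71 CPM in pip2 low, 12.3, 15 and 15.6 CPM in col0 high and 21.9, 22.1 and 22.8 CPM in col0 low, with pip2 low at the bottom and col0 low at the top, and an interaction of 1.18 ± 0.14 (edgeR adjusted p = 0.00312). FLA2, a fasciclin-like arabinogalactan protein, had 132, 151 and 127 CPM in pip2 high, 113, 119 and 109 CPM in pip2 low, 138, 129 and 124 CPM in col0 high and 179, 198 and 176 CPM in col0 low. Its order of groups matched that of AGP7, with an interaction of 0.76 ± 0.10 (edgeR adjusted p = 0.00715). GATL6, a galacturonosyltransferase-like protein, had 54.7, 51.6 and 59.9 CPM in pip2 high, 40.6, 42.2 and 47.7 CPM in pip2 low, 54.9, 46.9 and 48.7 CPM in col0 high and 80.0, 72.4 and 73.3 CPM in col0 low. Its col0 low libraries stood above the other 9, and its interaction was 0.93 ± 0.11 (edgeR adjusted p = 0.00391).

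Another form was a gene that rose in both genotypes, more in pip2. XTH15, a close relative of XTH16, had 113, 112 and 117 CPM in pip2 high, 29.4, 33.7 and 30.8 CPM in pip2 low, 93.3, 98.6 and 96.8 CPM in col0 high and 54.8, 44.8 and 58.5 CPM in col0 low. The 4 groups did not overlap, and pip2 spanned them from the lowest level at low humidity to the highest at high humidity. The interaction of XTH15 was 0.998 ± 0.12 (edgeR adjusted p = 0.00312), although 382 bases of the gene overlap a gene on the opposite strand and it is not given whether counting used strand. ERD5, the mitochondrial proline dehydrogenase that breaks down the osmolyte proline, had 335, 527 and 429 CPM in pip2 high, 119, 129.7 and 140.5 CPM in pip2 low, 377, 366 and 340.1 CPM in col0 high and 239.8, 255 and 237 CPM in col0 low. Its lowest libraries were again those of pip2 low, while pip2 high replicate 2 held the highest value, and its interaction was 1.16 ± 0.17 (edgeR adjusted p = 0.0118). FLA9 (interaction 1.21, adjusted p = 0.0237) and FLA13 (1.198, adjusted p = 0.0208), a pair of fasciclin-like arabinogalactan proteins, also rose in both. Leaving out 1 library at a time, FLA9 stayed past the threshold in 4 of 12 fits and FLA13 in 8. The beta-amylase family member BMY3 (0.66, adjusted p = 0.00863) and the beta-xylosidase-like BXL2 (0.54, adjusted p = 0.0224), which trims wall polysaccharides, had the same form.

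A further form was a gene with a response in pip2 alone by the call. PATL1, a patellin that binds membrane lipids and takes part in vesicle traffic at the cell plate, had 279, 327 and 280.3 CPM in pip2 high, 155, 176 and 163 CPM in pip2 low, 296, 295 and 280.3 CPM in col0 high and 286, 313 and 283 CPM in col0 low. The 3 pip2 low libraries stood apart below the other 9, which overlapped. Its response was 0.84 in pip2 (edgeR adjusted p = 3.02e-06) and -0.02 in col0 (adjusted p = 0.867), and the difference between them was 0.86 ± 0.10 (adjusted p = 0.00312). PATL2, its relative, had 39.8, 45.4 and 44.5 CPM in pip2 high, 30.3, 27.3 and 27.0 CPM in pip2 low, 39.99, 37.5 and 40.4 CPM in col0 high and 50.5, 45.1 and 47.2 CPM in col0 low. It rose in pip2 and fell in col0, with an interaction of 0.89 ± 0.10 (edgeR adjusted p = 0.00312). TTL4, a tetratricopeptide thioredoxin-like protein of a family that scaffolds brassinosteroid signalling, had 38.9, 39.5 and 33.1 CPM in pip2 high, 20.2, 19.7 and 21.3 CPM in pip2 low, 36.5, 41.1 and 41.8 CPM in col0 high and 38.4, 36.6 and 37.8 CPM in col0 low, in the form of PATL1 with only pip2 low apart. Its interaction was 0.78 ± 0.11 (edgeR adjusted p = 0.00863). F8H, a glycosyltransferase related to xylan synthesis enzymes (0.52, adjusted p = 0.00556), the hexokinase-like HKL1 (0.53, adjusted p = 0.0107) and the trehalose phosphate synthase family member TPS7 (0.38, adjusted p = 0.0321) also rose in pip2 with no call in col0.

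**Figure D3:**
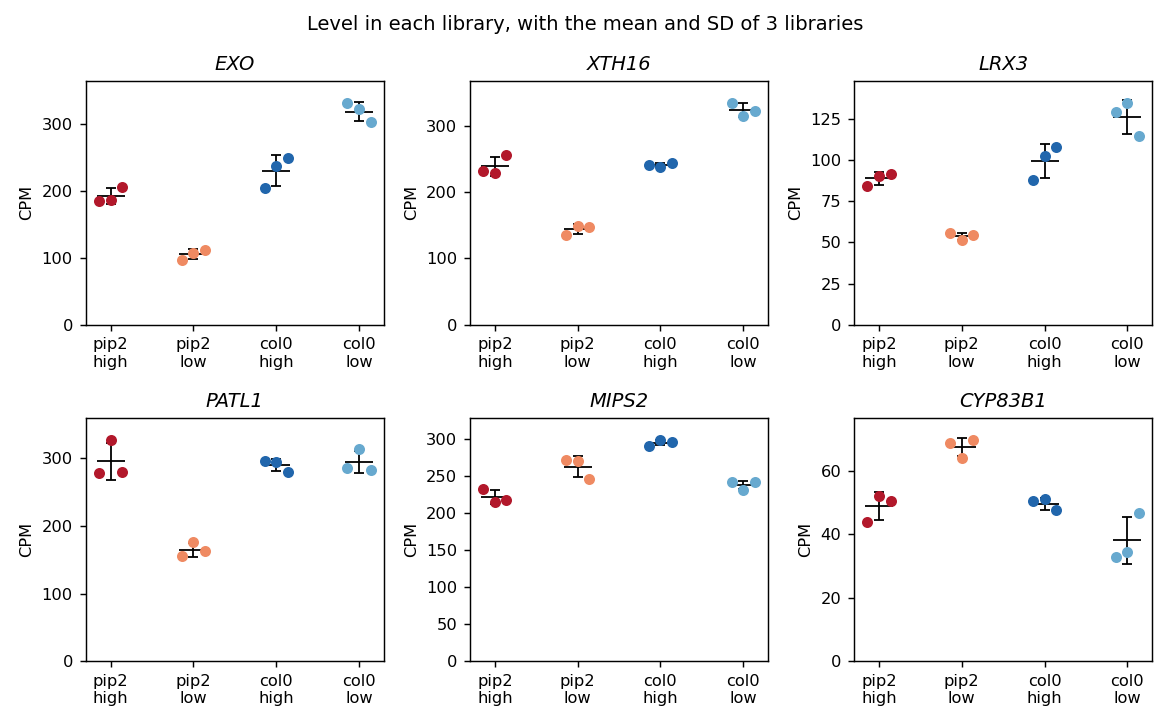
CPM of 6 genes in each of the 12 libraries, with groups along the horizontal axis in the order pip2 high, pip2 low, col0 high and col0 low. Dots are libraries, the black bar is the mean of 3 libraries and the whiskers are 1 SD. In EXO, XTH16, LRX3 and PATL1 the pip2 low libraries are the lowest, while in CYP83B1 they are the highest and in MIPS2 they lie between pip2 high and col0 high.

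The last form was a gene that fell in both genotypes, less in pip2. AGP15, an arabinogalactan peptide, had 364, 365 and 364 CPM in pip2 high, 431, 466 and 448 CPM in pip2 low, 368, 409.7 and 415 CPM in col0 high and 667, 719 and 693 CPM in col0 low. Its low humidity values were far higher in col0 than in pip2, and the high humidity values were closer together, with an interaction of 0.50 ± 0.09 (edgeR adjusted p = 0.0249). MTO3, which makes the methyl donor S-adenosylmethionine, BSK5, a brassinosteroid-signalling kinase, and the alpha-tubulin TUA5 fell in both as well. Reads of overlapping genes on the opposite strand may add to MTO3 (891 bases of overlap) and BSK5 (282 bases). TUA5 and its tandem neighbour TUA3 are near-identical, so reads may have been split between them and their values are uncertain.

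Among wall sensors and membrane-anchored proteins, the receptor kinase THE1 had 78.5, 89.5 and 71.7 CPM in pip2 high, 66.1, 66.3 and 71.3 CPM in pip2 low, 82.6, 84.7 and 82.8 CPM in col0 high and 113, 114 and 106 CPM in col0 low. It was highest in col0 low and its interaction was 0.65 ± 0.10 (edgeR adjusted p = 0.0132), past the threshold in 10 of 12 fits without 1 library. SHV3, a lipid-anchored protein needed for cellulose deposition, had an interaction of 0.51 (adjusted p = 0.0157), SKU5, a lipid-anchored protein of directed root growth, one of 0.51 (0.0224), and its relative sks4 one of 0.44 (0.0132). SMT3, a sterol methyltransferase, had 40.4, 49.2 and 46.9 CPM in pip2 high, 34.1, 33.9 and 32.8 CPM in pip2 low, 41.6, 43.1 and 38.9 CPM in col0 high and 50.3, 56.4 and 48.5 CPM in col0 low, again with pip2 low lowest, and an interaction of 0.77 ± 0.11 (edgeR adjusted p = 0.0111). The most abundant higher gene was XTH9, with 1483, 1319 and 1574 CPM in pip2 high, 1129.6, 1216 and 1249 CPM in pip2 low, 1381, 1416 and 1442 CPM in col0 high and 1842, 1835 and 1904 CPM in col0 low. Its col0 low libraries stood above the other 9 and its interaction was 0.68 ± 0.11 (edgeR adjusted p = 0.0157), past the threshold in 9 of 12 fits without 1 library.

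The families of these genes were then counted whole. They were chosen after the values were seen, partly because they hold called genes, and so have no test; over all tested genes 0.306% were called higher and 0.0457% lower. Of 23 tested XTH genes, 4 had a higher interaction past the threshold and 15 a positive value (median 0.22, against 0.02 over all tested genes), and of 16 fasciclin-like genes, 3 were past it and 12 positive (median 0.19). Of 26 arabinogalactan protein genes 3 were past the threshold and 20 positive (median 0.23), and of 8 EXORDIUM genes 3 were past it (EXO, EXL3 and EXL5) and 7 positive (median 0.46). Of 20 expansins 1 (EXLA2, past it in 2 of 12 fits without 1 library) was past the threshold and 16 positive (median 0.21), and of 16 SKU5 relatives 2 were past it and 13 positive (median 0.27). All 15 tubulins had a positive value (median 0.29). The 2 past the threshold were the near-identical TUA5 and TUA3, past it in 2 and 0 of 12 fits without 1 library. All 8 tested actins were positive too (median 0.26, ACT11 past the threshold and in 1 of 12 fits without 1 library). Sharing of reads between other members was not examined. By limma voom the counts past the threshold were 0 for expansins and 0 for actins. The 10 cellulose synthase catalytic subunits had a median of 0.03 and none past the threshold by edgeR or limma voom (1 by DESeq2), with 3 higher and 2 lower at an unadjusted p under 0.05. Over all tested genes 11708 of 21897 values were positive.

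**Figure D4:**
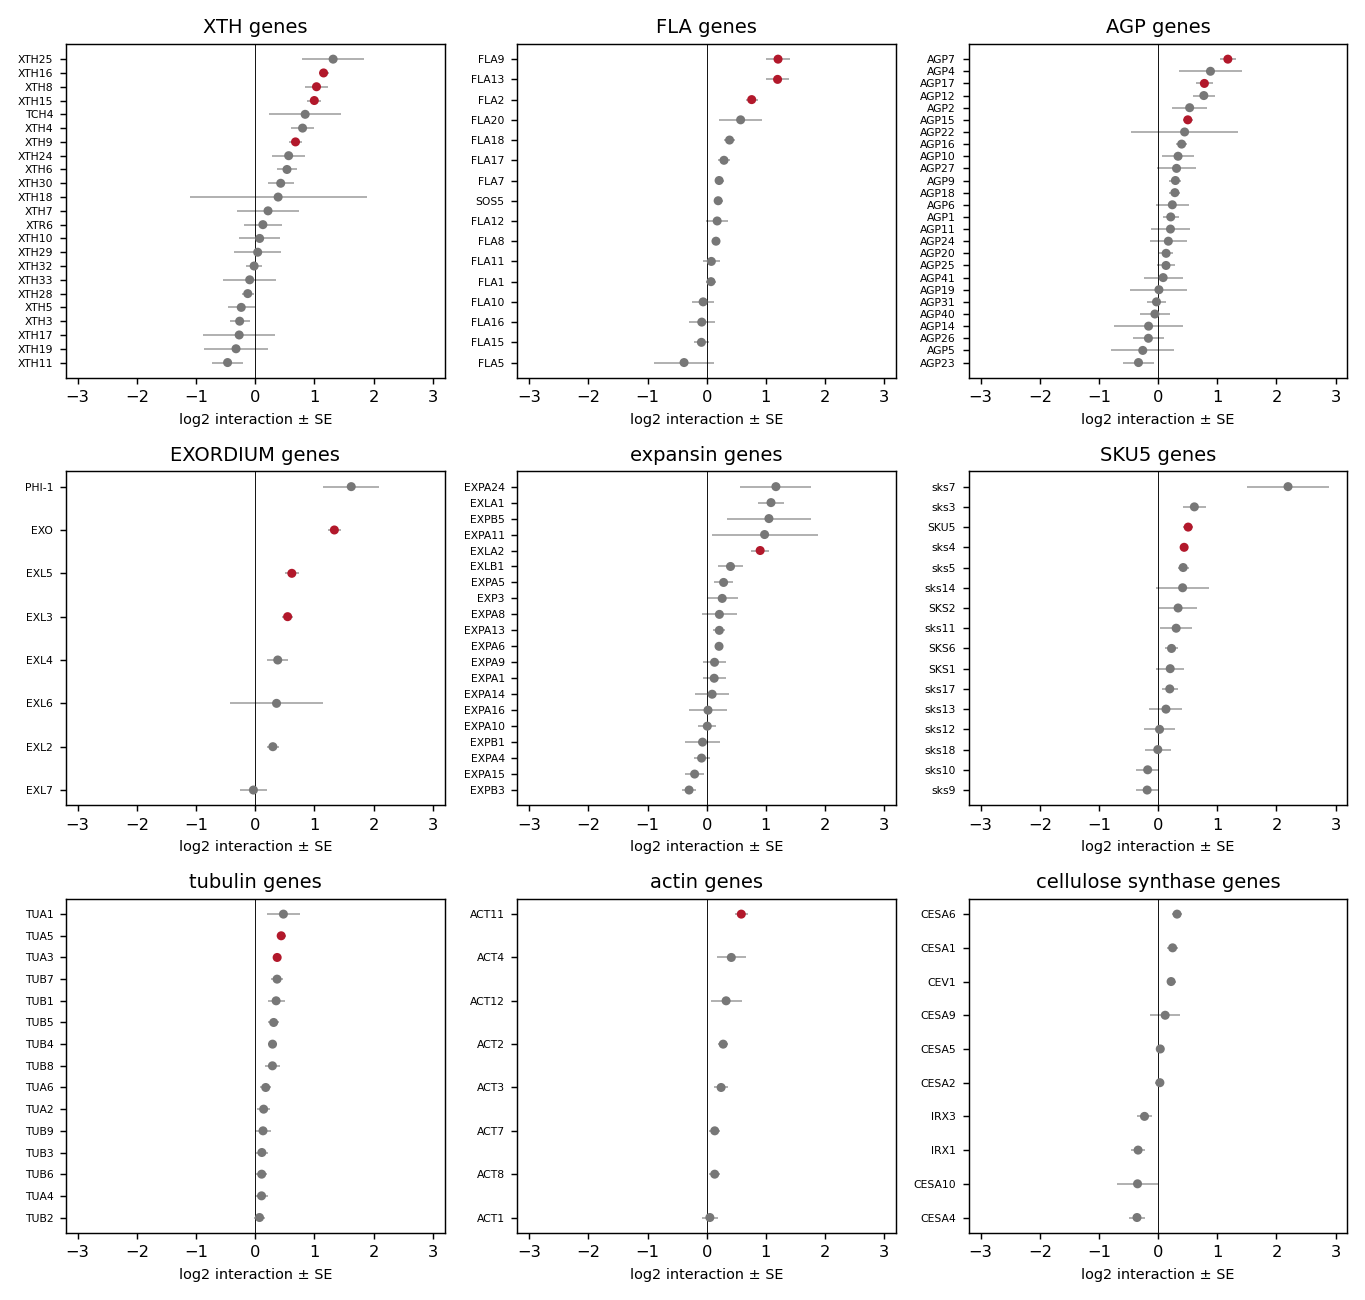
Log2 interaction (horizontal axis, ± SE from the edgeR fit) of every tested member of 9 gene families, sorted within each. Red points passed an adjusted p of 0.05. Every tubulin and actin lies right of 0, and red points occur in 8 of the 9 panels, the exception being the cellulose synthases.

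Of the 10 lower genes, 8 had a symbol. The smallest adjusted p among the lower genes was that of MIPS2, an inositol phosphate synthase, which had 232, 215 and 217 CPM in pip2 high, 271, 269.6 and 246 CPM in pip2 low, 291, 299 and 296 CPM in col0 high and 242, 232 and 241 CPM in col0 low. The col0 high libraries stood above the other 9, and the pip2 high libraries overlapped those of col0 low. MIPS2 fell in pip2 (log2 fold change -0.25, edgeR adjusted p = 0.00524) and rose in col0 (0.31, 0.000886), with an interaction of -0.55 ± 0.08 (adjusted p = 0.00863). CYP83B1, an enzyme that commits indole precursors to glucosinolates, had 43.9, 52.1 and 50.7 CPM in pip2 high, 68.7, 64.1 and 69.8 CPM in pip2 low, 50.5, 51.0 and 47.6 CPM in col0 high and 33.0, 34.6 and 46.7 CPM in col0 low. It was highest in pip2 low, overlapping between the high humidity groups, and lowest in 2 of the 3 col0 low libraries, with an interaction of -0.85 ± 0.15 (edgeR adjusted p = 0.0345). CYP79B2, which acts on tryptophan just before it, had 7.49, 9.19 and 9.2 CPM in pip2 high, 12.6, 14.5 and 14.2 CPM in pip2 low, 9.4, 8.55 and 7.74 CPM in col0 high and 7.58, 4.91 and 6.6 CPM in col0 low. Its pip2 low libraries stood above the other 9, and its interaction was -1.09 ± 0.21 (edgeR adjusted p = 0.0491). Without 1 library at a time CYP83B1 stayed past the threshold in 2 of 12 fits and CYP79B2 in 1.

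LOX3, a lipoxygenase that starts jasmonate synthesis, had 27.3, 31.6 and 28.4 CPM in pip2 high, 46.9, 51.3 and 56.1 CPM in pip2 low, 33.4, 36.4 and 35.4 CPM in col0 high and 40.8, 40.4 and 42.4 CPM in col0 low. It fell in both genotypes, more in pip2, with an interaction of -0.59 ± 0.11 (edgeR adjusted p = 0.0364). THI2.2, a thionin peptide of defence, rose in both genotypes, with 17.44, 26.3 and 22.6 CPM in pip2 high, 6.42, 8.15 and 6.03 CPM in pip2 low, 29.5, 24.5 and 28.3 CPM in col0 high and 2.59, 3.31 and 2.85 CPM in col0 low. The groups did not overlap except for pip2 high and col0 high, and its interaction of -1.55 ± 0.23 (edgeR adjusted p = 0.0132) had the lowest value of the 77. The glutathione transferase GSTF9 (-0.54, adjusted p = 0.0477), the beta-glucosidase family member BGLU9 (-0.62, 0.0467) and the cellulose synthase-like CSLG3 (-0.46, 0.0467) were also lower. LOX3 stayed past the threshold in 2 of 12 fits without 1 library, GSTF9, BGLU9 and CSLG3 in 1 each, and THI2.2 in 11.

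Gene lists for pathways and tissues held 681 genes, of which 626 were tested, and 5 were called higher and 3 lower, against 0.306% and 0.0457% of all tested genes. For the humidity responses counted here, 12.3% of all tested genes rose and 11.7% fell in pip2, and 14.3% rose and 15.8% fell in col0. Of 24 expansin and xyloglucan genes, 3 were higher (XTH16, XTH15 and XTH9; list median 0.21), 1 of 13 brassinosteroid genes (EXO; 0.11) and 1 of 38 abscisic acid and dehydration genes (ERD5; -0.16). In the abscisic acid and dehydration list 23 of 38 values were negative and 12 members were lower before adjustment, with 4 called lower by DESeq2 and 1 by limma voom. Of 15 indole glucosinolate genes, 2 were lower (CYP83B1 and CYP79B2), 13 of the 15 had a negative value, and the median was -0.43. In that list 8 members fell and 2 rose in pip2, while 4 fell and 4 rose in col0. Of 25 jasmonate genes, 1 was lower (LOX3), with 21 negative values and a median of -0.25, and 18 members fell in pip2 and 10 in col0.

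The aliphatic glucosinolate list had the lowest median of all (-0.87) with no member past the threshold by edgeR, 18 of 19 values negative and 11 lower at an unadjusted p under 0.05. DESeq2 called 3 members lower and limma voom 0. CYP79F1, which starts aliphatic glucosinolate synthesis from elongated methionine, had 1.23, 0.914 and 1.02 CPM in pip2 high, 4.25, 3.95 and 4.43 CPM in pip2 low, 2.98, 1.78 and 2.0 CPM in col0 high and 3.13, 3.31 and 3.25 CPM in col0 low. Its interaction of -1.47 ± 0.30 had an edgeR adjusted p of 0.0646 (0.0145 by DESeq2), and its pip2 low libraries stood above the other 9. In this list 16 members fell in pip2 and 8 in col0, and none rose. The summed level of the list was 352 to 378 CPM in pip2 high, 494 to 525 CPM in pip2 low, 365 to 418 CPM in col0 high and 457 to 481 CPM in col0 low.

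Rapid touch and wound response genes had a median interaction of -0.57 with none of 38 past the threshold by edgeR, DESeq2 or limma voom and 11 lower before adjustment. In pip2 10 rose and 1 fell, and in col0 24 rose and none fell. These genes varied widely between libraries of a high humidity group: their summed level was 328 to 577 CPM in pip2 high and 312 to 341 CPM in pip2 low, against 422 to 738 CPM in col0 high and 321 to 351 CPM in col0 low. WRKY40, a transcription factor of early defence, had 0.671, 1.92 and 3.64 CPM in pip2 high, 2.96, 2.34 and 1.05 CPM in pip2 low, 1.25, 5.76 and 6.49 CPM in col0 high and 0.782, 0.628 and 0.35 CPM in col0 low, with an interaction of -2.97 ± 0.91 and an edgeR adjusted p of 0.34. The pip2 high and the col0 high libraries of WRKY40 overlapped through col0 high replicate 1 alone. In low humidity the pip2 libraries stood above those of col0, all at low levels.

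The heat shock and photosynthetic lists responded to humidity in both genotypes and had median interactions near 0. Of 20 heat shock and chaperone genes, 17 rose in pip2 (12.3% of all tested genes did) and 19 in col0 (14.3%), with median log2 fold changes of 1.60 and 1.55, and the median interaction was -0.03 with no call by edgeR or limma voom, 1 higher by DESeq2, and 1 higher and 2 lower before adjustment. Of 25 photosynthetic genes, 17 rose in pip2 and 16 in col0, and the median interaction was 0.01 with none at an unadjusted p under 0.05 and none called by the 3 tools. The sum of the photosynthetic genes was 42076 to 44392 CPM in pip2 high and 31127 to 38026 CPM in pip2 low, against 41178 to 42993 CPM in col0 high and 33348 to 36877 CPM in col0 low. Sulfur status genes, which report the supply of sulfate, had 8 members higher and 1 lower before adjustment, none past the threshold by edgeR or limma voom and 1 higher by DESeq2 (median 0.23). ATSDI1, a gene induced by sulfur shortage, had 8.05, 5.36 and 5.94 CPM in pip2 high, 2.27, 1.97 and 1.49 CPM in pip2 low, 6.32, 7.59 and 6.25 CPM in col0 high and 4.74, 4.63 and 4.3 CPM in col0 low and an interaction of 1.19 ± 0.27 (edgeR adjusted p = 0.109, and 0.0189 by DESeq2).

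Regulators of the meristem and of flower identity had no interaction past the threshold by edgeR. The 32 tested meristem and boundary genes had a median of -0.05, with none higher and 3 lower before adjustment and 0 calls by DESeq2 or limma voom, and the smallest p belonged to KNAT1, a homeodomain factor of meristem upkeep and stem growth (-0.33, adjusted p = 0.495). The 27 flower genes had a median of -0.12, with 1 higher and none lower before adjustment, SPL5 (0.62, adjusted p = 0.0814, and 0.00808 by DESeq2), a factor that promotes flowering. The 13 plasma membrane aquaporins include PIP2;5 (0.78), which was near the bottom of the measured range in pip2. The 13 had 12 positive values and a median of 0.20. Before adjustment 4 of these aquaporins were higher, with none called by edgeR or limma voom and 2 by DESeq2. Among them PIP1C had 451, 461 and 443 CPM in pip2 high, 349.9, 359.7 and 366 CPM in pip2 low, 464, 419.7 and 413 CPM in col0 high and 432, 437 and 465 CPM in col0 low, with pip2 low lowest, and an interaction of 0.37 ± 0.08 (edgeR adjusted p = 0.1, and 0.00134 by DESeq2). The nitrate reductase gene NIA2 missed the threshold most narrowly among the lists' leading genes (0.50, edgeR adjusted p = 0.0552, and 0.00332 by DESeq2).

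No marker of another tissue passed the threshold in the interaction by edgeR, DESeq2 or limma voom. The 23 anther genes had a median of 0.34 with none at an unadjusted p under 0.05, and their summed level was 6054 to 7126 CPM in pip2 high, 5025 to 6634 CPM in pip2 low, 5790 to 7118 CPM in col0 high and 4537 to 6196 CPM in col0 low, ranges that overlap. The 17 vascular genes (median -0.03) had 4 lower before adjustment, and the 15 stomatal genes (median -0.08) none. The part of tissue composition in the 77 calls was not tested. The remaining lists had no member past the threshold by edgeR, at most 5 higher and 5 lower before adjustment, and medians between -0.27 (salicylic acid and immunity) and 0.55 (terpene synthases). In these, DESeq2 called 2 tonoplast aquaporins (TIP) higher and 1 gene each of the cytokinin, wax and cutin, sugar starvation and nitrate lists higher, and limma voom called 1 tonoplast aquaporin higher.

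**Figure D5:**
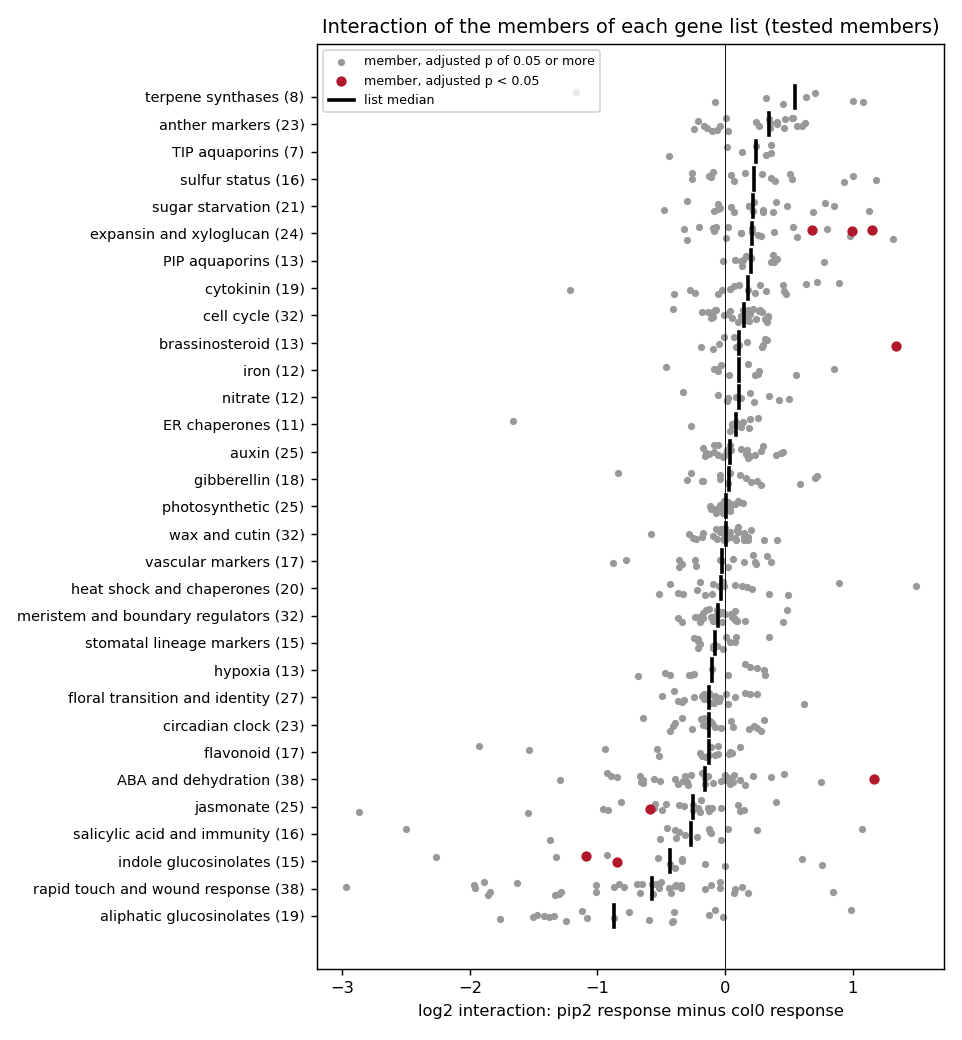
Log2 interaction of the tested members of each gene list (dots; number of members in brackets) with the list median as a black bar. Red dots passed an adjusted p of 0.05, 8 in all. The medians of aliphatic glucosinolates (-0.87), touch and wound response (-0.57) and indole glucosinolates (-0.43) lie furthest to the left.

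The calls were sensitive to single libraries. Their direction was kept, but the same libraries selected the genes, so this is no separate support. All 77 genes kept the sign of their interaction under each of 21 other settings, which included leaving out each library in turn. A total of 21 genes, 20 higher and MIPS2, stayed past the threshold in every one of them. With symbols, the 20 were EXO, AGP7, ERD5, XTH16, LRX3, XTH15, GATL6, PATL2, PATL1, TTL4, SMT3, FLA2, TTL3, BMY3, HKL1 and F8H, together with 4 that lack one. The number of calls was 60, 64 and 37 without pip2 high replicates 1, 2 and 3, and 31, 52 and 43 without those of pip2 low. It was 32, 23 and 40 without col0 high replicates 1, 2 and 3, and 35, 29 and 45 without those of col0 low. Among the named genes with fewer than 12 fits past the threshold, a call lost in this way is not evidence that the responses were equal.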

How the data were processed

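RNA was extracted from inflorescence meristems and made into libraries with a kit for Illumina sequencing, per the labels' protocols. The submitters' processing notes name Trimmomatic 0.39 for the reads, HISAT2 2.2.1 with the build TAIR10, and featureCounts 2.0.6. The sources used here do not say whether strand was used. The deposited count table holds raw read counts per gene, and the deposited TPM table, made by the authors, was used only for levels of tissue markers (2537 genes lack a TPM value). Every gene of the count table has at least 1 count in col0 low replicate 1, so genes silent there are not analysed here.

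From the counts, genes were kept by filterByExpr of edgeR 4.0.16 in R 4.3.3 (minimum count 10, minimum total 15), scaled by TMM and tested with edgeR's quasi-likelihood test, two-sided, with 1 mean per group over all 12 libraries and Benjamini-Hochberg adjustment at 0.05 over 21897 genes. CPM values use TMM-scaled library sizes. The same fit gave the humidity response in each genotype. Alternatives were DESeq2 1.42.0, limma 3.58.1 (voom with quality weights), other scalings and filters, a replicate block, leaving out libraries and a robust fit, the last added after seeing the data. Pairs of replicates of a group had a chi-square per degree of freedom of 4.85 to 11.4, so none repeated another. The test was tested on simulated data with known changes. It recovered 22.4% of genes given a log2 interaction of 0.5 in size, 68.7% at 1 and 89.4% at 2, and 4.76% of its calls were false. A gene without a call may therefore still have an interaction of a small size.

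Members and lists were chosen with earlier results of these data known. Named genes are PIP2;5, the higher and lower genes of largest interaction that stayed past the threshold without each library (filled up by adjusted p), and the leading members of each list; those named beyond this rule were chosen after their values were seen. Identifiers were matched to the RefSeq annotation of TAIR10.1 (25326 of 25424), which gave symbols for 58 of the 77 genes, and the printed coordinates are of that assembly. Of the 77 genes, 18 overlap a gene on the opposite strand, so the limit given for XTH15, MTO3 and BSK5 applies to others as well. Among these are MAPKKK7 (1792 bases), PMR6 (810 bases), FAH1 (410 bases) and SHV3 (198 bases).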

Additional observations from a re-analysis of the deposited data

Results flagged for a closer look

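The 77 genes whose humidity response differed between pip2 and col0 by the interaction test are the results singled out here, since the test bears on the difference itself. Values below are log2 interactions of the 58 genes with a symbol. Groups of 3 libraries are too small for the check of single samples that stand apart.

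Among wall enzymes and expansins the values were 1.15 for XTH16, 1.03 for XTH8, 0.998 for XTH15, 0.68 for XTH9 and 0.90 for EXLA2. Enzymes of wall polysaccharides had 0.93 (GATL6), 0.60 (LGT8), 0.52 (LGT9), 0.52 (F8H), 0.54 (BXL2), 0.46 (PMR6) and 0.89 (MIOX2). Wall and surface proteins had 1.34 (EXO), 0.55 (EXL3), 0.62 (EXL5), 1.07 (LRX3), 1.21 (FLA9), 1.198 (FLA13), 0.76 (FLA2), 1.18 (AGP7), 0.78 (AGP17), 0.50 (AGP15), 0.53 (ENODL17), 0.51 (SKU5), 0.44 (sks4) and 0.51 (SHV3).

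Kinases and signalling proteins had 0.65 (THE1), 0.58 (LYK3), 0.51 (BSK5), 0.68 (TTL3), 0.78 (TTL4), 0.39 (ROP2), 0.42 (MAPKKK7), 0.58 (ACR4, by its identifier AT1G69040 an ACT domain repeat protein), 0.56 (Cand1) and 0.40 (NIG). The cytoskeleton and membrane traffic were represented by 0.58 (ACT11), 0.44 (TUA5), 0.37 (TUA3), 0.86 (PATL1) and 0.89 (PATL2). Metabolic genes and transporters had 1.16 (ERD5), 0.66 (BMY3), 0.53 (HKL1), 0.38 (TPS7), 0.77 (SMT3), 0.70 (FAH1), 0.49 (MTO3), 0.98 (ACHT5) and 0.43 (UMAMIT14).

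The lower values were -1.55 for THI2.2, -1.09 for CYP79B2, -0.85 for CYP83B1, -0.62 for BGLU9, -0.59 for LOX3, -0.55 for MIPS2, -0.54 for GSTF9 and -0.46 for CSLG3. No explanation of these values was tested.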

How the results depend on the processing

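All 77 called genes kept their direction under the 21 alternatives run, and 21 stayed past the threshold in each. The kept direction is no separate support, since the same libraries selected the genes. Against 77 calls (67 higher, 10 lower), DESeq2 gave 186 (131 and 55), the replicate block 163 (125 and 38), and the fit without both col0 high replicate 1 and pip2 high replicate 2 gave 42 (29 higher). Lower calls numbered 6 with no filter on low counts and 19 in the robust fit (97 calls in all). Leaving out each library gave 23 (without col0 high replicate 2) to 64 calls (without pip2 high replicate 2). Higher calls numbered 21 to 56, and lower calls 2 (without col0 high replicate 2) to 20 (without pip2 high replicate 2). These fits kept 23 to 52 of the 77. The 8 list members called became 31 by DESeq2, 21 with the replicate block, 13 in the robust fit and 4 to 11 without 1 library. The 44 genes with responses of opposite sign became 97 by DESeq2, 87 with the replicate block, 24 without the 2 libraries and 16 to 34 without 1. Humidity calls without 1 library ranged from 3899 to 5267 in pip2 and from 4670 to 6945 in col0. Fits with fewer libraries have a wider error, and the cause of the shifts was not tested.

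The shared replicate numbers did not meet the rule that every same-numbered pair correlate above 0.1 in its deviations from the group means: 12 of 18 did (-0.03 to 0.38, median 0.19). Of pairs with other numbers 5 of 36 did (median -0.12). All 3 same-numbered pairs did between col0 high and col0 low and between pip2 low and col0 low. In addition, 11 of 12 libraries correlated best with their own number, a hint from the data and not from the design. With the replicate block, CYP79F1 (adjusted p = 0.0445), NIA2 (0.0268), SPL5 (0.0235) and 1 touch and wound gene passed the threshold in edgeR. Other scalings moved the median interaction of all genes by less than 0.1 log2. Genes silent in col0 low replicate 1 are not analysed here.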
